A study of Homo sapiens with 8 samples.

Results

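The genes described here are 10 enzymes and regulators of arginine and polyamine metabolism, AGMAT, ODC1, AZIN1, AMD1, SRM, SMS, SAT1, ARG2, ASS1 and CPS1, measured by RNA-seq in ESO26, an established line from an oesophageal adenocarcinoma. The set was chosen by the lower value of AGMAT after knockdown of the transcription factor HNF4A, so the values of AGMAT in this comparison are a description and carry no test. The other 9 genes were added for their place in the pathway with results of the same comparison known, and their counts are read as description too. All 10 were found among the 30755 symbols of the expression table, and all 10 reached the minimum for testing, an average of 10 normalized counts over the 4 libraries, which 15577 genes reached.

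The expression data comprised 4 libraries: 2 of ESO26 cells given siRNA against HNF4A (siHNF4A 1 and 2) and 2 of control ESO26 cells (control 1 and 2). All 4 were grown in the same serum-containing medium. The labels give neither the siRNA sequence, the kind of control, the time after transfection nor the meaning of the letter B in the knockdown titles. The design text speaks of triplicates, whereas 2 libraries in each group were analysed here. Nothing states that the libraries came from separate cultures, so the p-values measure the spread between these libraries, which may be technical. A single cell line was studied.

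Polyamines (putrescine, spermidine and spermine) are small positively charged molecules that bind nucleic acids and are needed for translation and growth, and renewing epithelia such as that of the gut hold much of them. Ornithine decarboxylase (ODC1) makes putrescine from ornithine, which arginase releases from arginine. AMD1 supplies the aminopropyl donor with which spermidine synthase (SRM) and spermine synthase (SMS) extend the chain, and SAT1 acetylates spermidine and spermine for export or back-conversion. AGMAT is a mitochondrial enzyme annotated as agmatinase, which splits agmatine into putrescine and urea.

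Values are normalized counts as deposited. A log2 fold change is the difference of the mean log2(normalized count + 1), knockdown minus control, and a gene was called at a Benjamini-Hochberg adjusted p under 0.05 in limma over all 15577 genes. Totals of normalized counts lay between 17912507 and 18613685 per library. The absolute sequencing depth is unknown, so no counting interval is given. The smallest step between low values gave depths relative to control 1 of 1.10 for control 2, 1.37 for siHNF4A 1 and 1.22 for siHNF4A 2. Genes listed at 0 numbered 5479 and 5640 in control and 4260 and 4362 in knockdown libraries. The part of this difference in the results was not tested. The targeted gene, HNF4A, had 4129 and 3937 normalized counts in the control libraries and 1140 and 932 in the knockdown libraries, 25.7% of the control mean. All 7 columnar epithelial markers examined were present, with summed values of 94007 to 102106 normalized counts over the 4 libraries. EPCAM, KRT8 and KRT18 of that list were called lower, and KRT19 and CDH17 higher.

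Markers of other cell types had far lower summed values, over 3 squamous, 3 fibroblast, 3 leukocyte and 2 endothelial genes found in the table. The squamous sum was 15.0 to 34.3 in the controls and 18.4 to 36.2 in the knockdown, and its keratins differed in direction. KRT14 had 0.637 and 2.29 in control cells and 12.2 and 25.7 after knockdown, KRT5 had 32.6 and 12.1 and then 6.14 and 10.5, and KRT13 had at most 1.05. The fibroblast sum was 122 to 195 in the controls and 223 in both knockdown libraries, most of it from the collagen COL1A1, with 179 and 108 in control cells and 202 and 212 after knockdown. COL1A2 had at most 4.89 and DCN at most 17.0. The leukocyte sum was 61.0 to 70.3 in the controls and 43.9 to 82.0 in the knockdown, of which the macrophage gene CD68 had 28.5 to 64.4, CD14 6.43 to 15.5 and the pan-leukocyte antigen PTPRC at most 2.05. Of the endothelial genes, VWF had 8.55 and 6.68 in control cells and 47.5 and 36.4 after knockdown, and CDH5 8.48 to 16.5. The tests of these genes are not given, since KRT14, KRT5, CD14 and VWF reached the minimum for testing through 1 group only. The endothelial sum was 15.2 to 24.6 in the controls and 47.2 to 64.0 in the knockdown. The part of these differences in the results below was not tested.

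**Figure D1:**
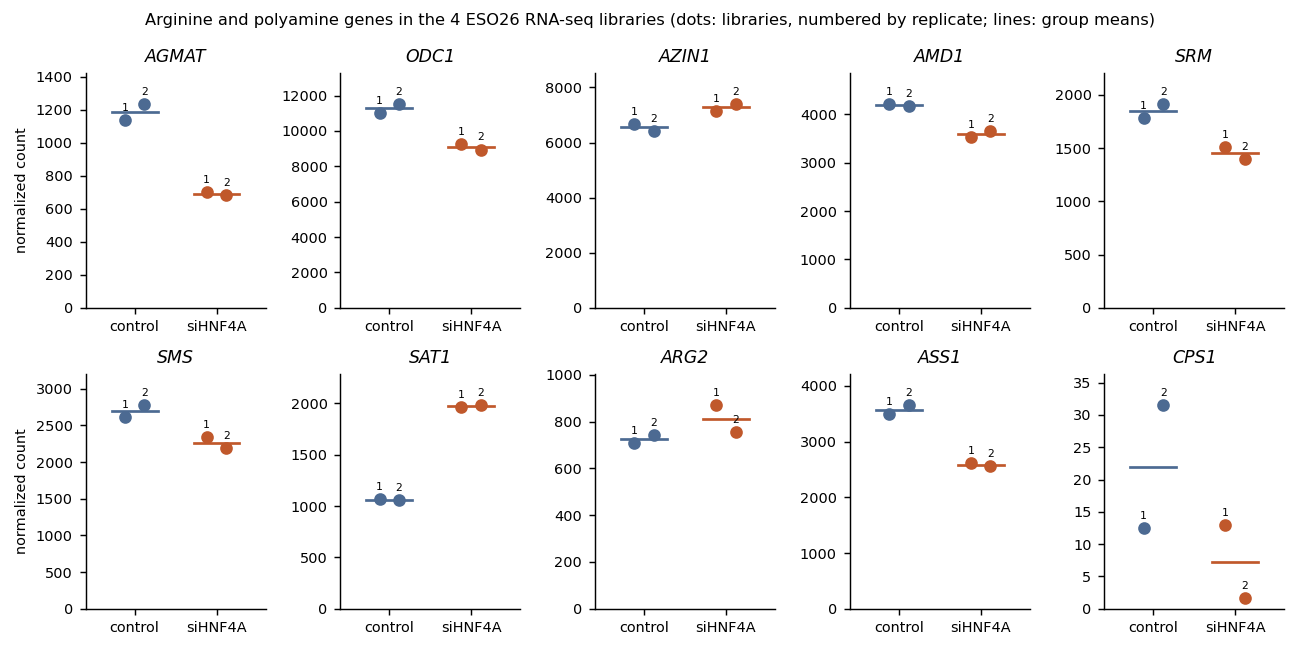
Normalized counts (y axis, from 0) of the 10 genes in the 2 control and 2 siHNF4A libraries (x axis). Dots are libraries, numbered by replicate, and lines are group means. AGMAT, ODC1, AMD1, SRM, SMS and ASS1 lie lower in both knockdown libraries, SAT1 lies higher in both, and the groups overlap for CPS1 only.

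Beside AGMAT, whose fall chose the set, ODC1, AMD1, SRM and SMS of polyamine synthesis and ASS1 were lower in the knockdown, and the acetylating enzyme SAT1 was higher. CPS1 reached the minimum for testing only through the controls, and with AGMAT it is left out of the counts. Of the 8 others, 5 were called lower and 1 higher. Over all genes tested 14.1% were called, 8.11% lower and 6.02% higher. The median log2 fold change of the 8 was -0.24, against -0.0073 over all genes tested. In 8 of the 8 both knockdown libraries lay on one side of both control libraries, as in 57.0% of all genes tested. The 8 were picked with these results known, so the counts describe them and support nothing further. The 6 calls were 3 without control replicate 2 and 2 without siHNF4A replicate 2. After rescaling the libraries to the same total, and after quantile normalization, AMD1 and SMS were no longer called and AZIN1 was called higher. Rescaling to the same total also moved the share of higher genes among all calls from 42.6% to 53.0%.

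AGMAT had 1135 and 1235 normalized counts in control cells against 698 and 681 after knockdown. Both knockdown libraries lay well below both controls, and they differed from each other by less than the controls did. The group means were 1185 ± 70.5 and 690 ± 11.9 (SD, n = 2), so that 58.2% of the control mean was left. In bulk RNA, fewer cells that express a gene and less RNA of it per cell cannot be told apart. Its log2 fold change of -0.78 (SE 0.089) placed AGMAT at rank 368 from the lowest among 15577 genes. AGMAT lies on chromosome 1 (GRCh38.p14, chr1:15571699-15585051) and overlaps DNAJC16 in the RefSeq annotation. DNAJC16, which encodes a DnaJ-family protein, had 1787 and 1621 normalized counts in control cells against 1448 and 1238 after knockdown (log2 fold change -0.35, adjusted p = 0.0376 in limma). The labels do not say if reads were counted by strand, and the part of shared reads was not tested.

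RefSeq promoter windows (GRCh38.p14, 250 bases before an annotated transcript start) were at hand for 9 of the 10 genes, 15 windows in all because some genes have several starts. They are shown for AGMAT, for SRM as a gene of polyamine synthesis that was lower, and for SAT1, which was higher. Each is printed 5′ to 3′ on the strand of the gene and ends at the base before the transcript start. Capitals mark exact matches, on either strand, to words searched for: CAAAGTCCA or CAAAGTTCA or CAAAGGTCA or the shorter AAAGTCCA that lies within the first, as parts of HNF4-type binding sequences, the E-box CACGTG, which MYC and MAX can bind, and the GATA word AGATAA. The AGMAT window is chr1:15585052-15585301 (minus strand), the SRM window chr1:11060019-11060268 (minus strand) and the SAT1 window chrX:23782923-23783172 (plus strand).
AGMAT: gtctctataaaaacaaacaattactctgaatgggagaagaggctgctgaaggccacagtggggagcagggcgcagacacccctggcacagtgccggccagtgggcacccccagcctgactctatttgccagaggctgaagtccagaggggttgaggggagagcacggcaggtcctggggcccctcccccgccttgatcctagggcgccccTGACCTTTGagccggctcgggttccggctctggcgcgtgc
SRM: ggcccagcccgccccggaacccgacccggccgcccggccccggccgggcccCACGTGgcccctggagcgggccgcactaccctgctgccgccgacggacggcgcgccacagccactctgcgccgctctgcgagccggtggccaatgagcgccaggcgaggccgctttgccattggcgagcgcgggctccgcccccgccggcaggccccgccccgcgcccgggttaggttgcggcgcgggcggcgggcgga
SAT1: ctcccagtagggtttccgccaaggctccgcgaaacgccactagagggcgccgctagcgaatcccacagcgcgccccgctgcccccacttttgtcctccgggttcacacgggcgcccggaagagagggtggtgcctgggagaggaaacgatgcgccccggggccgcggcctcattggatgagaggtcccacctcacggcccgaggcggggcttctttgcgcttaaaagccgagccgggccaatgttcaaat

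The AGMAT window held TGACCTTTG, the reverse complement of CAAAGGTCA, from 40 to 32 bases before the start. This word was found in 119 of 35116 RefSeq windows of the same length (0.339%), and in no other of the 15 windows. The other HNF4-type words were in none of the 15 windows, against 0.325% of all windows for CAAAGTCCA, 0.251% for CAAAGTTCA and 0.980% for AAAGTCCA. The E-box was present in 4 of the 15 windows, against 6.34% of all windows. Its windows in ODC1, SRM and ASS1 were 82.4%, 82% and 78.8% G or C, and that in CPS1 40%. The median over all windows was 58%, and the part of base composition was not tested. The 15 are not separate promoters, since the AMD1 starts at 110874784 and 110874785 give nearly the same window. In SRM the E-box lay 199 to 194 bases before the start. In ODC1 it lay 29 to 24 bases before the start at 10448012, and in ASS1 71 to 66 bases before the start at 130444961. In CPS1 it lay 46 to 41 bases before the start at 210519718. ODC1 and ASS1 each have a further window without it and CPS1 has 2. The GATA word was in 2 CPS1 windows, against 9.17% of all windows. The windows of SAT1, SMS, AMD1 and ARG2 held none of these words. A match describes the letters only. Binding at these windows was not analysed here, since the ChIP-seq peaks are given on hg19 and no annotation of that build was used.

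ODC1, the enzyme of the first committed step, had 11029 and 11531 normalized counts in control cells against 9242 and 8948 after knockdown. The groups did not overlap, and the knockdown mean was 80.6% of the control mean. On the log2 scale ODC1 changed by -0.31 (SE 0.053, adjusted p = 0.0050 in limma), and without siHNF4A replicate 2 the call was lost (adjusted p = 0.0519 in limma). AZIN1 is a relative of ODC1 without its enzyme activity that binds antizyme and so spares ODC1 from degradation. It had 6677 and 6426 normalized counts in control cells against 7155 and 7407 after knockdown, a log2 fold change of 0.15 with a 95% interval of 0.028 to 0.28. It was not called as deposited (adjusted p = 0.101 in limma), and it was called after rescaling to the same total (0.0478) and after quantile normalization (0.0368). The antizymes OAZ1 and OAZ2, which bind ODC1 and direct it to the proteasome, were not called, with log2 fold changes of -0.090 and -0.091. The testis-type antizyme OAZ3 had 22.9 and 29.0 normalized counts in control cells against 14.7 and 15.8 after knockdown, a log2 fold change of -0.72 with a 95% interval of -1.58 to 0.13, and was not called (adjusted p = 0.246 in limma). AZIN2, listed under its older symbol ADC, had at most 20.3 normalized counts and was not called.

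AMD1, the decarboxylase that makes the aminopropyl donor, had 4214 and 4168 normalized counts in control cells against 3531 and 3662 after knockdown. AMD1 changed by -0.22 on the log2 scale (SE 0.060, adjusted p = 0.0371 in limma). This call was lost when any 1 of the 4 libraries was left out (adjusted p of 0.0663 to 0.197 in limma) and with either rescaling. SRM had 1785 and 1915 normalized counts in control cells against 1514 and 1398 after knockdown, or -0.35 on the log2 scale (SE 0.079, adjusted p = 0.0183 in limma). Its call was lost without control replicate 2 (0.0566) or siHNF4A replicate 2 (0.121). SMS had 2619 and 2781 in control cells against 2339 and 2190 after knockdown, or -0.25 on the log2 scale (SE 0.071, adjusted p = 0.0406 in limma). Both knockdown libraries lay below both controls for each of these 3 genes, and the knockdown means were 78.7% of the control for SRM, 83.9% for SMS and 85.8% for AMD1. The call of SMS held without control replicate 1 and was lost without any of the other libraries (adjusted p of 0.0799 to 0.222 in limma).

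SAT1 moved the other way. It had 1066 and 1056 normalized counts in control cells against 1963 and 1986 after knockdown, and the libraries within each group were close to each other. The means were 1061 ± 6.88 and 1974 ± 15.9 (SD, n = 2), which is 186% of the control. The rise was 0.90 on the log2 scale (SE 0.074, adjusted p = 1.33e-04 in limma), the largest of the 10 genes and rank 466 from the highest among 15577. Its log2 fold change lay between 0.89 and 0.90 when any 1 library was left out. Of the 5 other genes of polyamine breakdown 0 were called in limma, beside 14.1% of all genes tested. Among the 5 only 1, AOC1, had an unadjusted p under 0.05, as did 28.9% of all genes tested. SMOX, the spermine oxidase, had a log2 fold change of 0.14 with a 95% interval of -0.32 to 0.61, and PAOX, which oxidizes acetylated polyamines, 0.059 with an interval of -0.62 to 0.74. AOC1, the diamine oxidase that degrades putrescine, had 647 and 720 normalized counts in control cells against 567 and 485 after knockdown (adjusted p = 0.0541 in limma). SAT2, a relative of SAT1, had 229 and 252 in control cells against 256 and 200 after knockdown.

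ASS1, which joins citrulline and aspartate on the way to arginine, had 3490 and 3659 normalized counts in control cells against 2615 and 2554 after knockdown. All libraries of the groups were separated, and the knockdown mean was 72.3% of the control. ASS1 thus changed by -0.47 on the log2 scale (SE 0.064, adjusted p = 0.0017 in limma), and it kept its call when any 1 library was left out. ASS1 has 14 pseudogene copies in RefSeq, and the 3 of them in the table had at most 4.43 normalized counts. ASL, which completes arginine synthesis, had 836 and 901 in control cells against 786 and 657 after knockdown and was not called (log2 fold change -0.27, adjusted p = 0.131 in limma).

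ARG2, the mitochondrial arginase, had 707 and 743 normalized counts in control cells against 872 and 754 after knockdown. The groups did not overlap, but siHNF4A 2 lay only just above control 2. The log2 fold change was 0.16 with a 95% interval of -0.065 to 0.39 (adjusted p = 0.332 in limma). ARG2 overlaps GPHN and VTI1B in RefSeq, of which GPHN was called lower (log2 fold change -0.39, adjusted p = 0.0447 in limma). The liver arginase ARG1 had at most 1.84 normalized counts in any library. CPS1, the entry enzyme of the urea cycle in liver and gut, had 12.4 and 31.6 normalized counts in control cells against 12.9 and 1.69 after knockdown. These values overlap. Control 2 was the high library, and the log2 fold change of -1.77 is given as a description. This value lay between -2.96 without siHNF4A replicate 1 and -0.59 without siHNF4A replicate 2.

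Ordered by log2 fold change, the called genes ran from ASS1 through SRM, ODC1 and SMS to AMD1 on the lower side. The 95% intervals of neighbours in this order overlapped, and differences between genes were not tested. Levels were not compared between genes, because the values are not scaled to transcript length.

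Among the 8 genes other than AGMAT and CPS1, 6 were called as reported, and of these calls those of SAT1 and ASS1 depended least on the processing. Both were called in each setting that was run except the fit without a trend between variance and expression, in which no gene was called.

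**Figure D2:**
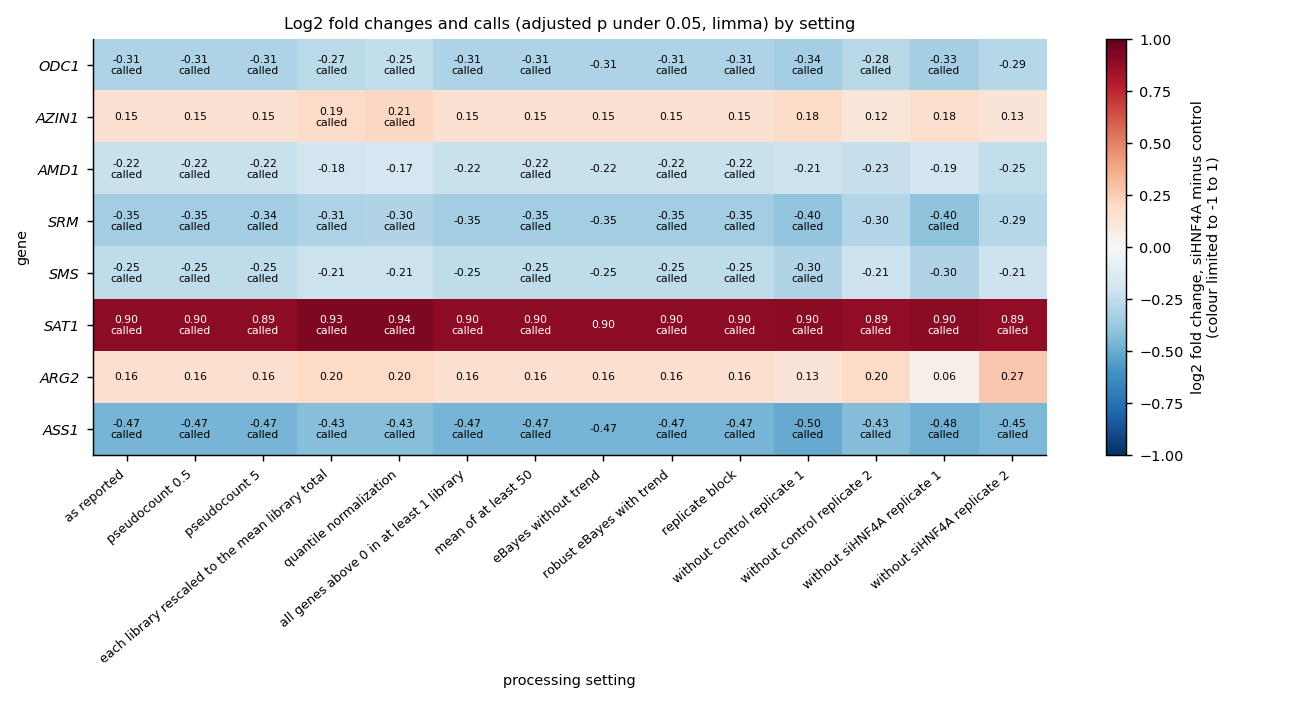
Log2 fold change (colour and number) of the 8 genes other than AGMAT and CPS1 (rows) under the reported setting and each alternative (columns), with "called" where the adjusted p in limma was under 0.05. SAT1 and ASS1 keep their call in all columns but the fit without trend, AMD1 loses it in 8 of 13 alternatives, and ARG2 is called in none.

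Other genes of the pathway were taken from 8 lists holding 60 genes, of which 59 were in the table and 52 were tested. Genes that reached the minimum for testing through 1 group only, such as NOS1, are left out of the counts. Of the 50 others, 8 were called lower and 1 higher, beside the shares of all genes given above, and 41 were not called. Their median log2 fold change was -0.091. The 9 calls were 5 without siHNF4A replicate 1 and 4 without siHNF4A replicate 2. After rescaling or quantile normalization 6 were called lower and 1 higher.

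Among regulators of synthesis, MYC, a transcription factor of which ODC1 is a textbook target, had 1960 and 2164 normalized counts in control cells against 1290 and 1477 after knockdown. It was called lower, with a log2 fold change of -0.58 (SE 0.089, adjusted p = 0.0031 in limma). Its partner MAX had 1315 and 1449 in control cells against 1351 and 1485 after knockdown and was not called.

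The methionine cycle feeds AMD1, and its genes were listed together with those of methionine salvage. Of these 9 genes 2 were called, both lower, where 14.1% of all genes were called and 8.11% were lower. AHCY, which hydrolyses S-adenosylhomocysteine, had 3863 and 4026 normalized counts in control cells against 3042 and 2725 after knockdown (log2 fold change -0.45, adjusted p = 0.0034 in limma). MTAP, which recycles the by-product of the synthases SRM and SMS, had 808 and 833 in control cells against 639 and 679 after knockdown (log2 fold change -0.32, adjusted p = 0.0484 in limma). The call of MTAP was lost with any 1 library left out (adjusted p of 0.0675 to 0.212 in limma) and with either rescaling. MAT2A, which makes S-adenosylmethionine, had a log2 fold change of -0.037 and was not called.

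Among genes of ornithine, proline and glutamate, 2 of 9 were called, both lower, again beside 14.1% of all genes called and 8.11% lower. ALDH18A1, the first enzyme from glutamate towards proline and ornithine, had 3317 and 3419 normalized counts in control cells against 2421 and 2455 after knockdown (log2 fold change -0.47, adjusted p = 0.0016 in limma). GLUD1, a glutamate dehydrogenase, had 1584 and 1555 in control cells against 1247 and 1190 after knockdown (log2 fold change -0.37, adjusted p = 0.0122 in limma), and its call was lost without siHNF4A replicate 2 (0.0802). OAT, which interconverts ornithine and glutamate semialdehyde, had 2299 and 2210 in control cells against 2516 and 2411 after knockdown and was not called.

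For uptake and use of arginine, 2 of 6 genes were called, 1 in each direction, beside 14.1% of all genes (8.11% lower and 6.02% higher). DDAH1, which hydrolyses methylated arginines, was the 1 pathway gene outside the chosen set that was called higher. It had 8056 and 7966 normalized counts in control cells against 9810 and 10268 after knockdown (log2 fold change 0.33, adjusted p = 0.0040 in limma). SLC7A2, a cationic amino acid transporter, had 259 and 216 in control cells against 162 and 144 after knockdown (log2 fold change -0.63, adjusted p = 0.0319 in limma). Its call was lost without control replicate 1 (0.115), siHNF4A replicate 1 (0.0701) or siHNF4A replicate 2 (0.152). SLC7A1, the widely expressed transporter of the same kind, had a log2 fold change of 0.039 with a 95% interval of -0.10 to 0.18.

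Of 6 genes of polyamine transport, 2 were called, SLC22A3 and SLC12A8, both lower, beside 8.11% of all genes. SLC22A3, an organic cation transporter, had 275 and 301 normalized counts in control cells against 191 and 202 after knockdown (log2 fold change -0.55, adjusted p = 0.0296 in limma). SLC12A8 had 474 and 512 in control cells against 389 and 345 after knockdown (log2 fold change -0.43, adjusted p = 0.0402 in limma). Both calls were lost without control replicate 2, siHNF4A replicate 1 or siHNF4A replicate 2 (adjusted p of 0.0877 to 0.130 for SLC22A3 and of 0.0665 to 0.209 for SLC12A8 in limma), and that of SLC12A8 with either rescaling. The lysosomal polyamine exporter ATP13A2 and its relative ATP13A3 were not called. Of the 4 genes that make or carry hypusine, the spermidine-derived residue of the translation factor EIF5A, 0 were called in limma, beside 14.1% of all genes. Among the 4 only 1, EIF5A, had an unadjusted p under 0.05, beside the same 28.9% of all genes. The log2 fold changes of the 4 lay between -0.26 and 0.087. Of the 5 tested urea cycle genes and carriers 0 were called in limma, beside 14.1% of all genes. ASL and the aspartate-glutamate carrier SLC25A13 had an unadjusted p under 0.05 (2 of 5, against 28.9% of all genes). The neuronal nitric oxide synthase NOS1 had 1.86 and 4.24 normalized counts in control cells against 35.1 and 8.47 after knockdown, which is given as a description.

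**Figure D3:**
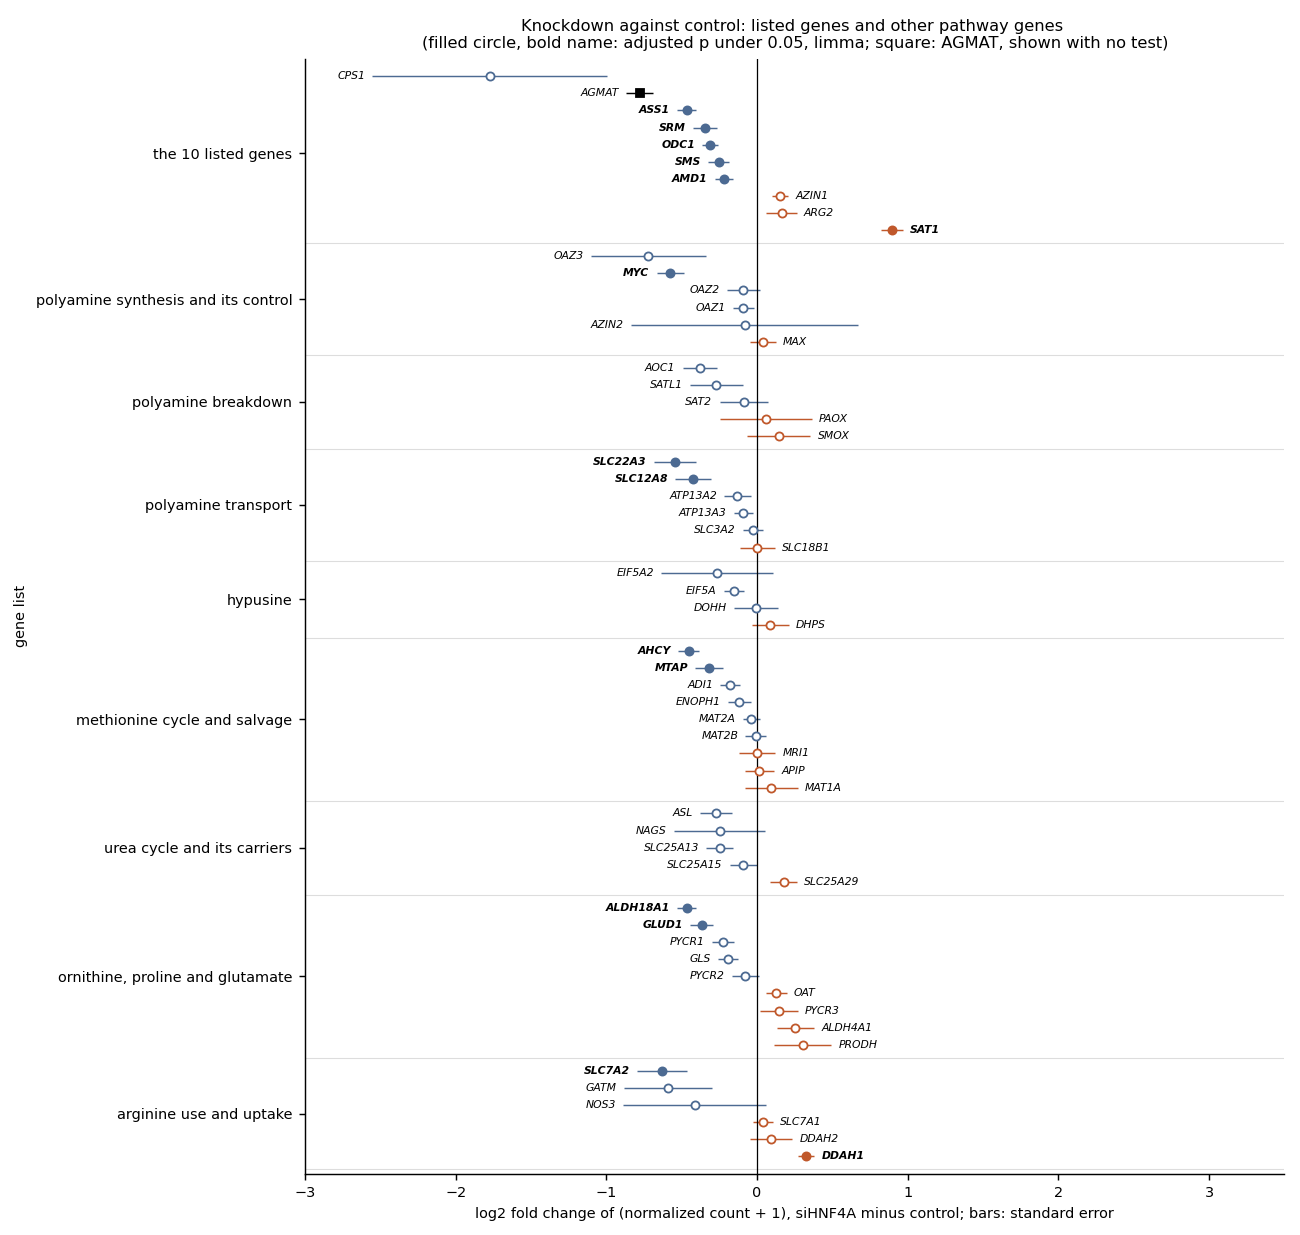
Log2 fold change with its standard error (x axis, siHNF4A minus control) of the 10 chosen genes and the 50 counted genes of the 8 other lists (y axis). Filled circles were called in limma, and the square is AGMAT, which has no test. SAT1 at 0.90 and DDAH1 at 0.33 are the called genes on the higher side.

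Genes with the pattern nearest to that of AGMAT were sought among 10917 other tested genes that averaged 100 normalized counts or more. The measure was the Euclidean distance, over the 4 libraries, between log2 values taken relative to the control mean. The nearest gene was SLC25A33, a mitochondrial carrier of pyrimidine nucleotides, at a distance of 0.026, with 1216 and 1302 normalized counts in control cells against 753 and 723 after knockdown. SLC10A3, a member of the bile acid transporter family, followed at 0.057, the acyl-CoA thioesterase ACOT7 at 0.064 and GEMIN2, a protein of the SMN complex, at 0.069. KITLG, the ligand of the KIT receptor, came next at 0.073. Each had between 56.5% and 59.8% of its control mean left. The pattern that chose them is the fall of AGMAT itself, so their lower values are no further result.

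**Figure D4:**
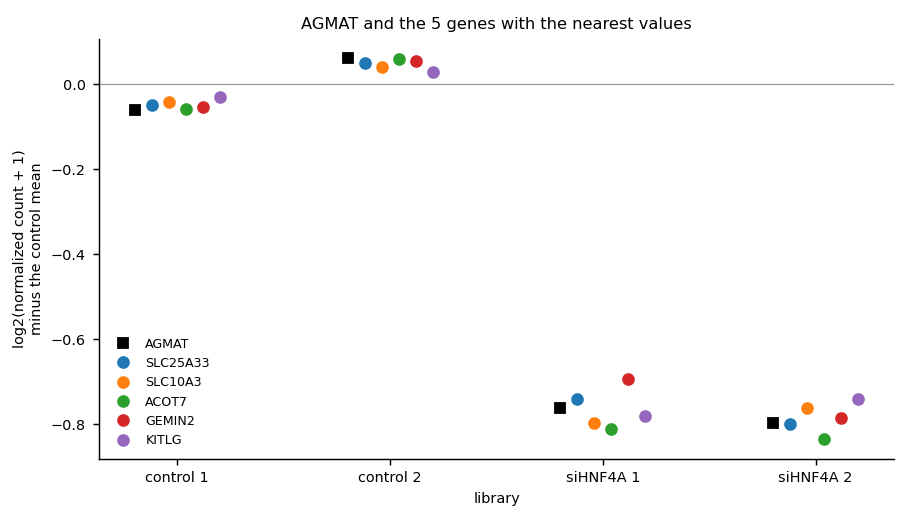
Log2(normalized count + 1) minus the control mean (y axis) of AGMAT (squares) and the 5 genes nearest to it (circles) in each of the 4 libraries (x axis). All 6 lie within 0.061 of the control mean in the control libraries and between -0.84 and -0.69 in the knockdown libraries.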

How the data were processed

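RNA was measured by sequencing in 4 ESO26 libraries, 2 per group, grouped by their titles. The deposited table gives normalized counts, a signal that the authors scaled by a method not given in the sources used here. The submitters' processing notes name Bowtie, Bowtie2, Trim Galore, Picard and MACS2 and the build hg19, with no roles or versions. Low values stepped by a unit that put the depths relative to control 1 at 1.10 to 1.37. Only 58.6% to 66.4% of the values above 0 in a lone library lay on its multiples (within 2% of a step), so no count model was fitted.

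Genes with a mean of at least 10 were tested with limma 3.58.1 in R 4.3.3 (intensity trend, no block) on log2(normalized count + 1), after the scripts were tested on simulated data. An exact two-sided permutation test of 2 libraries against 2 cannot go below 0.333. Alternatives were another pseudocount, rescaling, filter, variance model, a replicate block and leaving out each library. The genes and lists were chosen with earlier results of these data known. Counts leave out AGMAT, CPS1 and the pathway genes that reached the minimum through 1 group only, which was decided after their values were seen. Named genes are HNF4A, the 10 listed, up to 3 called genes per pathway list with AZIN2 and ARG1, and the 5 nearest to AGMAT in pattern. Further genes named (markers, overlapping genes and uncalled pathway genes) were chosen after their values were seen. A planned comparison of the proteins of these genes was not run.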

Additional observations from a re-analysis of the deposited data

How the results depend on the processing

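Without a trend of variance on expression limma called 0 genes, 0 of the 8 chosen genes other than AGMAT and CPS1 (6 as reported) and 0 of the pathway lists, although 3524 genes had an unadjusted p under 0.05. When every gene with a value above 0 was tested, 726 of 30247 genes were called, 3 of them among the 8 and 4 in the pathway lists. With 1 library left out the number of called genes lay between 1013 and 2449, that of the 8 between 2 (without siHNF4A replicate 2) and 5, and that of the pathway lists between 4 and 11. The lone library of a group was then assumed to vary like the other group. Same-numbered libraries did not deviate together (correlation -0.019 over 15577 genes). This cannot tell whether they shared a culture or preparation, which the labels do not state. The replicate block gave 2428 calls, 6 of the 8 and 10 in the pathway lists, and changed no call among the 8. The log2 fold change of AGMAT lay between -0.84 and -0.72 with 1 library left out and between -0.78 and -0.74 under the other alternatives. AZIN2, not called in any setting that tested it, had -0.083 as reported 0.0086 with a pseudocount of 5 and -0.39 after quantile normalization, and between -1.19 and 1.03 with 1 library left out. Of 104 values of the 8 under alternatives, 79 kept direction and side of the threshold, 23 lost the call and 2, both of AZIN1, gained it. The causes were not tested. Values under 10 normalized counts on average, as in ARG1, were too low to test.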
